A study of Mus musculus with 6 samples.

Results

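Oxidative phosphorylation is carried out by 5 protein complexes of the inner mitochondrial membrane, and the genes that encode them were followed here in primary osteoblasts with and without the Tet genes. The nuclear genes were taken by symbol: the Nduf genes of complex I and its assembly factors, the Sdh genes of complex II, the Uqcr genes of complex III, the Cox genes of complex IV and the Atp5 genes of complex V. Every gene of the mitochondrial chromosome was added, and a gene was kept when its mean over the 6 libraries reached 10 reads. Of 144 genes that matched by symbol or chromosome, 108 were kept, 93 nuclear and 15 mitochondrial, among 55471 genes in the table. Of the 36 genes left out, 14 were nuclear and 22 mitochondrial. The genes just inside the minimum were Ndufaf6 (mean 11 reads) and Ndufs6b (15.2), and those just outside were Atp5g2 and mt-Co3 (both 9.83).

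The cells came from C57BL/6 mice aged 3 days, 3 libraries from wild-type animals (WT) and 3 from Prx1-Cre animals with loxP-flanked alleles of Tet1, Tet2 and Tet3 (Tet1 fl/fl, together with Tet2 fl/fl and with Tet3 fl/fl; named TCKO). Tet enzymes oxidise methylated cytosine in DNA. Prx1-Cre is active in the mesenchyme of the limbs and part of the skull and not in blood cells, so that cells outside that lineage keep the Tet genes. The parietal bones of the skull were digested, the released cells were cultured for 3 days, and polyadenylated RNA was sequenced with a directional kit. The labels do not say whether the 3 libraries of a genotype came from separate animals or cultures, or whether animals were pooled, so p-values measure only the spread between these libraries.

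Electrons from NADH enter the respiratory chain at complex I and those from succinate at complex II. They pass through complex III to complex IV, where oxygen is reduced, and the proton gradient built on the way drives ATP synthesis by complex V. Most subunits are encoded in the nucleus and imported, whereas the mitochondrial genome encodes a small set of core subunits together with the rRNAs and tRNAs used to translate them, so the 2 genomes have to be expressed side by side. Osteoblasts use both glycolysis and respiration, and their reliance on each is known to change during differentiation.

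The libraries held 8019999 to 10177214 counted reads, and intervals on shares of these reads cover counting error only. Tet1 had 98, 131 and 115 reads in WT and 68, 51 and 51 in TCKO, and differed by -0.97 ± 0.16 on the log2 scale (SE; edgeR quasi-likelihood test, Benjamini-Hochberg adjusted p = 0.00648). Tet2 was -0.14 ± 0.14 (adjusted p = 0.545, same edgeR test) and Tet3 was 0.51 ± 0.09 higher (adjusted p = 0.00745, same edgeR test), counts that cover the whole gene and not the deleted exons alone. Replicates 1 and 2 of a genotype lay close together, with a biological coefficient of variation of 3.00% in WT and 3.62% in TCKO, whereas each pair with replicate 3 lay between 16.4% and 18.4%. The library TCKO replicate 3 had 4583 Xist reads and 0 Ddx3y reads, and every other library had at most 4 Xist reads and at least 675 Ddx3y reads. Of 8 osteoblast markers, Bglap and Dmp1 had at most 3 reads in any library, while Col1a1 and Runx2 were abundant. The summed CPM of those markers was 30191 to 32552 in WT and 14265 to 22409 in TCKO, and that of 7 haematopoietic markers was 381 to 706 in WT and 156 to 542 in TCKO. The list that differed most between genotypes was that of 5 chondrocyte markers, at 6168 to 8038 CPM in WT and 679 to 956 in TCKO, none of them at 0. The part of such differences in the genotype comparisons was not tested. In such bulk samples, fewer cells of a type and less RNA per cell cannot be told apart.

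To compare levels between genes, reads were divided by library size and by exon length (RPKM). The most abundant genes of the set were mitochondrial mRNAs. mt-Co1, the catalytic subunit of complex IV, averaged 3804 RPKM, mt-Cytb of complex III 2634, and the complex I genes mt-Nd1 1734 and mt-Nd2 1129. Not every mitochondrial mRNA had a high count, as mt-Nd3 averaged 8.75 RPKM. Nearly all of its sequence also occurs in another gene, so this value gives no level for the mRNA. Outside the set, Col1a1 averaged 2813 RPKM. The highest nuclear genes of the set were Cox8a (324 RPKM), a small subunit of complex IV, Atp5b (266), the catalytic beta subunit of ATP synthase, and Cox6a1 (230). The median nuclear gene stood at 15.1 RPKM, against 5.71 for all 13826 genes tested. Complex I assembly factors had a median of 4.73 RPKM, below complex II (31.7) and complex III (36.1). Within the isoform pairs of complex IV, the broadly expressed forms stood above their tissue-restricted partners. The order across the whole complex was mixed by RPKM, since Cox6c (6.01 RPKM) and Cox7c (3.99 RPKM) lay below the muscle form Cox6a2. In reads, Cox6c averaged 186.5 over a summed exon length of 3567 bases, and Cox6a2 38 over 680 bases. The pseudogene Cox6c2, which shares sequence with Cox6c, averaged another 203 reads. Cox7c also shares sequence with other genes, so the place of both genes in this order is uncertain. Cox4i1 reached 109 RPKM, whereas its lung-type partner Cox4i2 averaged 0.5 reads per library, the muscle forms Cox7a1 and Cox8b averaged 2 and 0 reads, and Cox6a2 stood at 6.42 RPKM. Between genotypes, the broadly expressed forms Cox5a, Cox5b, Cox7a2, Cox8a and Ndufa4 stayed within 0.25 of 0 on the log2 scale, from -0.10 to 0.12, and none passed the threshold (adjusted p from 0.296 to 0.974, edgeR).

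Low counts among the mitochondrial mRNAs went with sequence shared with other genes. Every one of the 50-base words of mt-Co2 also occurred in transcripts of other genes, as did 99.9% of those of mt-Co3, 99.5% of mt-Atp6, 98.8% of mt-Nd4l and 98.0% of mt-Nd3, the partners being pseudogenes of chromosome 1. These genes averaged 4.67, 9.83, 8.17, 0.333 and 26.5 reads per library, and only mt-Nd3 passed the minimum. In contrast, mt-Cytb shared none of its words and averaged 26180 reads. Sharing did not order all genes, as mt-Co1 shared 51.1% and averaged 51063 reads. For mt-Atp8 of complex V, which averaged 0.5 reads, 0% was found in annotated transcripts, the only sequences searched. That gene (MT:7766-7969) follows mt-Co2 and overlaps the start of mt-Atp6, and a copy outside annotated transcripts would have been missed. To show how complete the copy is, the start of mt-Co2 is given, MT:7013-7132 on the plus strand of GRCm38, which is the same base for base as chr1:24615446-24615565 on the minus strand, in Gm28661; over all 681 bases compared there was no difference.

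mt-Co2: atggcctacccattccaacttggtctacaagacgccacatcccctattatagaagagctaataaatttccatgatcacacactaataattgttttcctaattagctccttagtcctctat

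The subunits mt-Co2, mt-Co3 and mt-Atp6 are core parts of complexes IV and V, and their near absence among the counted reads therefore gives no level for these mRNAs. The low count of mt-Nd3 gives no level either. The copy of mt-Co2, Gm28661, was itself low, at a mean of 3 reads. Several nuclear genes had close copies too, and in the pairs below the copy held more reads than the gene. Atp5l, subunit g of ATP synthase (chr9:44912557-44920742, minus strand), averaged 28.7 reads, and Gm10221, a processed copy on chromosome 5, averaged 978. The 309 coding bases of Atp5l were identical in both, as the first 150 show (in Gm10221, chr5:24581713-24581862, minus strand).

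Atp5l: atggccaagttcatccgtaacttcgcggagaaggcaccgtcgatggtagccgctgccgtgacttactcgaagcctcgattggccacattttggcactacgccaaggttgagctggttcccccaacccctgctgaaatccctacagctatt

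A copy with a few changes was counted in the same way. Atp5g1, which encodes the ring subunit c of ATP synthase, averaged 261 reads and its copy Gm10039 averaged 1086, with 1 difference in 408 coding bases. Ndufs5, an accessory subunit of complex I, averaged 190 reads and its copy BC002163 averaged 490, with 2 differences in 318. A stretch of each pair is given with the differing bases in capitals; the copies lie at chr11:100361719-100361868 (minus strand) and chr16:42955661-42955810 (plus strand).

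Atp5g1: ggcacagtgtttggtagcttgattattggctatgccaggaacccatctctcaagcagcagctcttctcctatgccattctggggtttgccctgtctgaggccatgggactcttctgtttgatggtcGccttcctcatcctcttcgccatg
Gm10039: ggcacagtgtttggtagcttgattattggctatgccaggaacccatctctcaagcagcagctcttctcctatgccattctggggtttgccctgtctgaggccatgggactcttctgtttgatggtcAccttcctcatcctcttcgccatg
Ndufs5: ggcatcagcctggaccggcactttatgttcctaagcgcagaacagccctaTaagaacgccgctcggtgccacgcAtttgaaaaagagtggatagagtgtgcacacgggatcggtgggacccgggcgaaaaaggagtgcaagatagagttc
BC002163: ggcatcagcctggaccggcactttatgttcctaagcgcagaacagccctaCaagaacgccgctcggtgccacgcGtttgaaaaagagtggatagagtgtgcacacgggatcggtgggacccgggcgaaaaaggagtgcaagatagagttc

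Levels and changes of genes with such copies are uncertain, since how multiply mapped reads were counted is not given in the sources used here. Strand use in counting is not given either, and 20 of the nuclear genes overlap exons of a counted gene on the other strand. That is also the case for mt-Nd5 and mt-Nd6, the single mRNA of the minus strand, which stood at 1066 and 1070 RPKM. Those 2 overlap at their ends only, mt-Nd5 reaching to MT:13565 and mt-Nd6 starting at MT:13552.

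**Figure D1:**
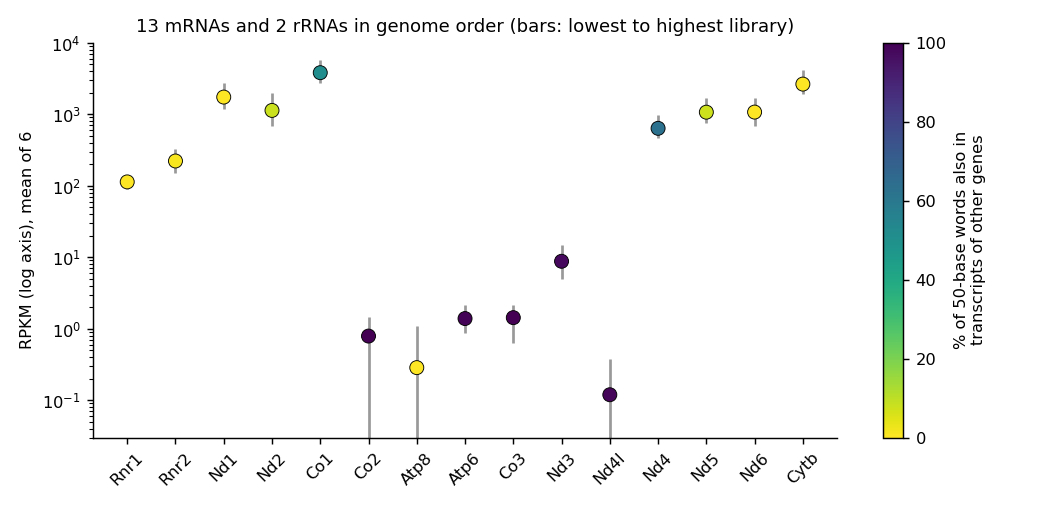
RPKM of every mitochondrial mRNA and of both rRNAs in genome order (mean of 6 libraries on a log axis, bars from the lowest to the highest library, libraries at 0 drawn to the foot of the axis), coloured by the percentage of 50-base words that also occur in transcripts of other genes. The 5 genes with the largest shares (98.0% to 100%) lie between 0.119 and 8.75 RPKM, and mt-Cytb with 0% lies at 2634, whereas mt-Atp8, also with 0%, is near the foot of the axis. Only annotated transcripts were searched, so a copy of mt-Atp8 outside them would have been missed.

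To determine whether loss of the Tet genes changed this gene set, TCKO libraries were compared with WT libraries in a fit over all 13826 tested genes. Very little changed: 0 of 93 nuclear genes were higher in TCKO, where 9.07% of all tested genes were, and 2 were lower, where 8.63% of all tested genes were (edgeR quasi-likelihood test, adjusted p under 0.05). At an unadjusted p under 0.05, 3 nuclear genes were higher and 8 lower, and DESeq2 gave 0 higher and 1 lower after adjustment. Without WT replicate 3 the count of higher genes was 3, and without TCKO replicate 3 the counts were 2 higher and 4 lower. Over 2-fold, 0 nuclear genes were higher (3.16% of all tested genes) and 1 was lower (3.19%). The median nuclear log2 fold change was 0.03, with 83.9% of the genes within 0.25 of 0, against a median of 0.00 and 55.1% of all tested genes. Among genes with a mean of 100 reads or more, 90.7% of the nuclear genes and 63.1% of all tested genes lay within that band.

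The largest change was in Cox6a2, the heart and skeletal muscle form of a small regulatory subunit of complex IV (ENSMUSG00000030785, chr7:128205435-128206387, minus strand). It had 59, 58 and 57 reads in the WT libraries and 15, 23 and 16 in the TCKO libraries, or 6.61 ± 0.725 and 2.12 ± 0.640 CPM (SD, n = 3 libraries each). Every TCKO library was below every WT library. The log2 fold change was -1.64 ± 0.25 (SE), with an adjusted p of 0.00468 in the edgeR quasi-likelihood test. Its broadly expressed counterpart Cox6a1, which was counted far more often, was at 1496, 1667 and 1456 reads in WT and 1238, 1237 and 1346 in TCKO. The CPM values of Cox6a1 did not overlap between genotypes either, with a log2 fold change of -0.23 ± 0.07 that missed the threshold (adjusted p = 0.0615, same edgeR test). Since Cox6a2 is a muscle form, 8 skeletal muscle markers were set beside it. Their summed CPM was 11.9, 9.78 and 31.3 in WT and 80.4, 86.1 and 30.8 in TCKO, and most TCKO reads of the list belonged to Acta1 (585, 573 and 263 reads, against 39, 34 and 92 in WT). Myog, Myod1, Mylpf, Tnnt3 and Myh3 were each lowest in TCKO replicate 3. Myh3 had 25, 31 and 82 reads in WT and 56, 61 and 6 in TCKO, and Mylpf had 20, 18 and 41 in WT and 41, 35 and 4 in TCKO, so that in replicates 1 and 2 both were higher in TCKO. The part of muscle cells in the Cox6a2 value was not tested. Tnnc2 was at 0 in every library and Ckm had at most 2 reads.

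The other gene that fell was Ndufa2, an accessory subunit of complex I. It had 621, 753 and 632 reads in WT and 515, 496 and 600 in TCKO, or 75.6 ± 0.835 and 62.6 ± 4.33 CPM (SD, n = 3 libraries each). The genotypes did not overlap, and the log2 fold change was -0.27 ± 0.08 (adjusted p = 0.0446, edgeR quasi-likelihood test). This call was lost without any single library except TCKO replicate 3 and under DESeq2 (adjusted p = 0.0816), and exons of Ndufa2 overlap those of Tmco6 on the other strand.

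**Figure D2:**
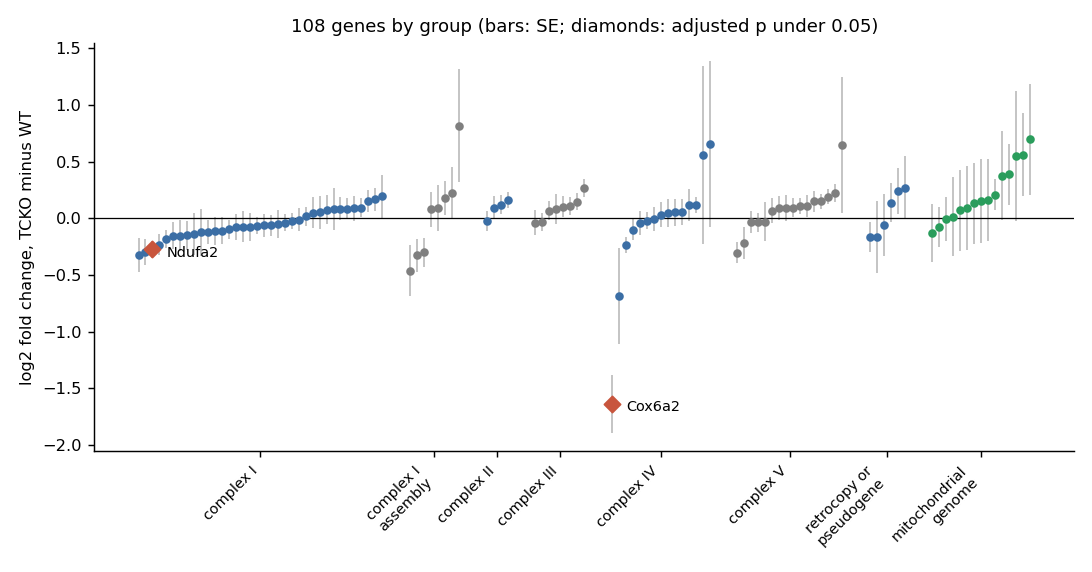
Log2 fold change of TCKO minus WT with its SE for all 108 genes, sorted within each group. Cox6a2 (-1.64) and Ndufa2 (-0.27) are the only genes past the threshold, and 33 of 36 complex I genes lie within 0.25 of 0.

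Complex by complex, the differences were small and did not all point the same way. In complex I, 24 of 36 genes were below 0 and 12 above (median -0.06), and the 7 core subunits that carry the flavin, the iron-sulfur clusters and the quinone site ranged from -0.06 to 0.17. In contrast, 11 of 16 complex V genes were above 0 (median 0.09), as were 6 of 8 complex III genes (median 0.09). In neither group did a gene pass the adjusted threshold in the edgeR test. The summed CPM of complex V was 2328, 2292 and 2387 in WT and 2667, 2682 and 2454 in TCKO. All 3 TCKO libraries were above all WT libraries, as was also the case for complex II (342 to 349 against 357 to 382 CPM) and complex III (446 to 488 against 490 to 515 CPM). The summed assembly factors of complex I were at 86.7 to 88.6 CPM in WT and 84.6 to 85.4 in TCKO, although 5 of 8 of these genes were above 0 (median 0.08), while the sums of complexes I and IV overlapped. With 3 libraries against 3, an exact permutation test cannot go below p = 0.1, and these sums over single complexes were not tested.

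Several of the larger nuclear genes contributed to those sums. Atp5b, with 8574, 10326 and 8657 reads in WT and 10973, 10071 and 10113 in TCKO, was at 1039 ± 9.54 and 1213 ± 68.0 CPM (SD, n = 3). Its log2 fold change was 0.22 ± 0.08 (adjusted p = 0.0974, edgeR). Uqcrfs1, the Rieske iron-sulfur protein of complex III, had 655, 837 and 741 reads in WT and 925, 830 and 853 in TCKO, a difference of 0.27 ± 0.08 (adjusted p = 0.0520, edgeR). For both genes the TCKO libraries lay above the WT libraries in CPM, although neither passed the threshold. The genes of subunit c went in different directions, Atp5g3 at 0.19 ± 0.06 (adjusted p = 0.0823, edgeR) and Atp5g1 at -0.30 ± 0.09 (adjusted p = 0.0621, edgeR); the copy Gm10039 of Atp5g1 was at -0.19.

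Among genes with 100 reads or more, the other low values were those of Ndufaf3 (-0.33) and Ndufaf1 (-0.30), assembly factors of complex I, and of its subunits Ndufs6 (-0.32) and Ndufa11 (-0.30), with adjusted p from 0.120 to 0.184 in the edgeR test. The other high values were Ndufa6 (0.19), an accessory subunit, and Ndufaf4 (0.18), an assembly factor (adjusted p = 0.531 and 0.448, edgeR). None of them passed the threshold, although for Ndufa11 and Ndufaf1 every TCKO library was below every WT library in CPM. In all, the CPM ranges of the genotypes lay apart in 7 nuclear genes higher in TCKO (19.4% of all tested genes were) and in 7 lower (18.9%). Of the 7 higher genes, 4 belonged to complex V, 2 to complex III and 1 to complex II, and of the 7 lower genes 3 belonged to complex I.

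Cox6b2, a form of another complex IV subunit best known from testis, differed by library. It had 78, 81 and 78 reads in WT and 29, 25 and 91 in TCKO. The TCKO replicates 1 and 2 were below every WT library, whereas TCKO replicate 3 was above them, and the overall difference was -0.69 ± 0.42 (adjusted p = 0.314, edgeR). Replicate 3 of TCKO is the library with the Xist reads; the part of that in the value was not tested. Cox6b1, the broadly expressed form, was at 0.05 ± 0.12 (adjusted p = 0.818, edgeR).

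**Figure D3:**
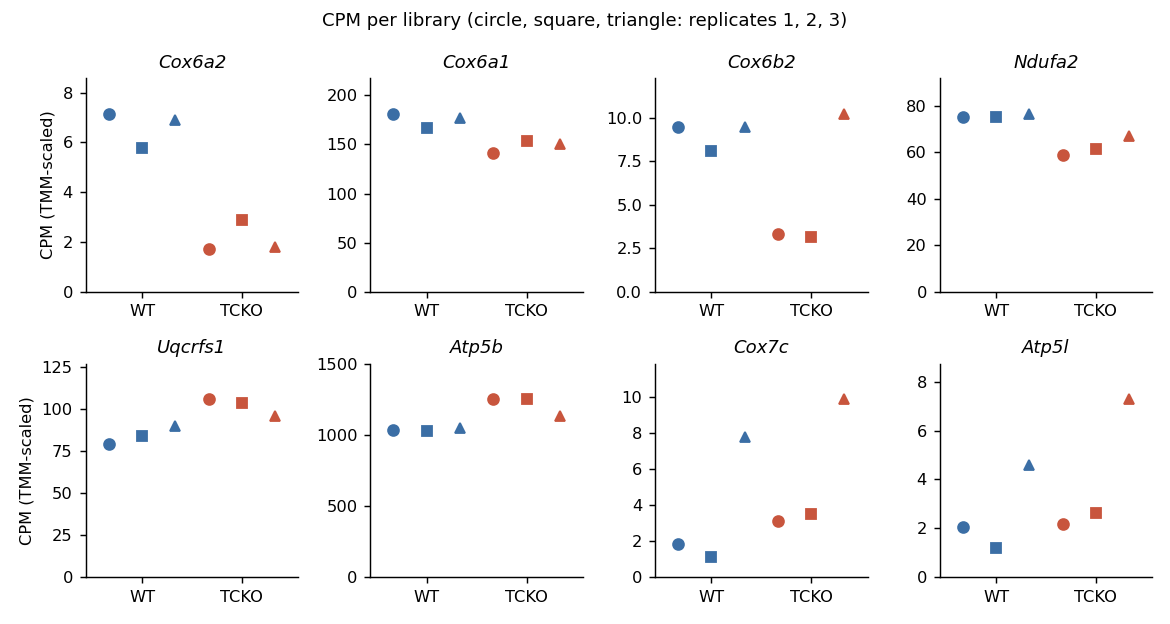
CPM of 8 nuclear genes in each library (WT in blue, TCKO in red; circle, square and triangle for replicates 1, 2 and 3; each axis starts at 0). Cox6a2 and Ndufa2 are lower in all TCKO libraries, Cox6b2 is low in TCKO replicates 1 and 2 alone, and Cox7c and Atp5l are highest in replicate 3 of each genotype.

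The mitochondrial genes showed no change with genotype in the same fit: 0 of 15 were higher and 0 lower, also at an unadjusted p under 0.05 and in DESeq2. Their summed CPM was 11269, 11493 and 22333 in WT and 12318, 11851 and 24319 in TCKO. The groups overlapped, since replicate 3 of either genotype was far above the other two libraries. The summed level differed by 0.10 on the log2 scale (exact permutation test, two-sided, p = 0.5), against an SD of 0.56 over the WT libraries and 0.58 over the TCKO libraries. Within replicate numbers 1, 2 and 3 it was 0.13, 0.04 and 0.12 higher in TCKO (exact sign-flip permutation test, two-sided, p = 0.25, the smallest that 3 pairs allow). The nuclear sum was 5258, 5158 and 5407 CPM in WT and 5527, 5691 and 5377 in TCKO, a difference of 0.07 (exact permutation test, two-sided, p = 0.2; SD 0.03 and 0.04). Reads from mitochondrial genes amounted to 2.14, 2.23 and 4.13 times those from nuclear genes in WT and 2.23, 2.08 and 4.52 times in TCKO, which gave a log2 difference of 0.03 (exact permutation test, two-sided, p = 0.8).

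The replicate numbers were taken to pair the libraries, although the labels state no pairing. With this replicate block, 2 mitochondrial genes were called higher in TCKO, where 12.0% of all tested genes were called higher and 11.5% lower. The first was mt-Nd2, with 5886, 7332 and 13310 reads in WT and 8682, 7713 and 18019 in TCKO (log2 fold change with the block 0.40 ± 0.08, adjusted p = 0.0121, edgeR). The second was mt-Rnr2, the large-subunit rRNA, with 1982, 2407 and 3550 reads in WT and 2742, 2891 and 4618 in TCKO (0.41 ± 0.08, adjusted p = 0.0142, edgeR). Within each replicate number, both genes were higher in the TCKO library by CPM, while without the block their adjusted p was 0.555 and 0.366 (edgeR). The other 7 mRNAs did not pass the threshold with the block: mt-Nd3 was at 0.55, mt-Nd1 at 0.18, mt-Nd6 at 0.17, mt-Nd5 at 0.13, mt-Cytb at 0.07, mt-Nd4 at 0.06 and mt-Co1 at -0.004 (adjusted p from 0.144 to 0.980, edgeR). Replicates 1 and 2 were also alike across numbers, and with both summed into 1 library per genotype the block called 0 mitochondrial genes after adjustment and 2 at an unadjusted p under 0.05 (mt-Nd2 adjusted p = 0.203 and mt-Rnr2 0.140, edgeR; DESeq2 was not run on these sums). The same 2 nuclear genes, Cox6a2 and Ndufa2, were called with the block (adjusted p = 0.00682 and 0.0352, edgeR).

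**Figure D4:**
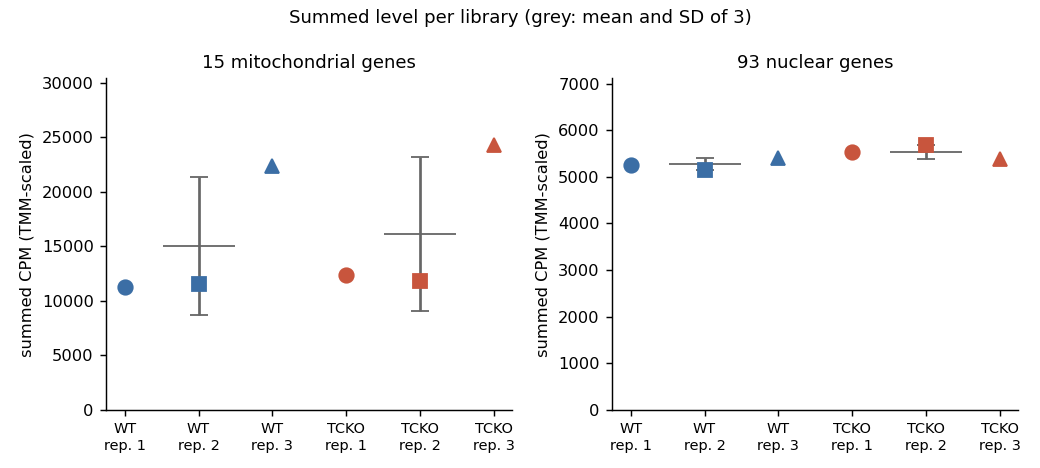
Summed CPM of the 15 mitochondrial and the 93 nuclear genes in each library, with the mean and SD of 3 libraries per genotype in grey and axes that start at 0. Replicate 3 stands at 22333 (WT) and 24319 (TCKO) for the mitochondrial genes, against 11269 to 12318 in the other 4 libraries, while the nuclear sums stay between 5158 and 5691.

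The difference between replicates was the larger one. To examine it gene by gene, replicate 3 was compared with replicates 1 and 2 with genotype in the fit. Of 15 mitochondrial genes, 12 were higher in replicate 3, against 5.08% of all tested genes, and 0 were lower, against 5.35% (edgeR quasi-likelihood test, adjusted p under 0.05; DESeq2 called 10 higher and 0 lower; the unadjusted p under 0.05 gave 12 higher and 0 lower). With replicates 1 and 2 of each genotype summed into 1 library, 0 were called after adjustment and 12 at an unadjusted p under 0.05. The median log2 fold change of the mitochondrial genes was 0.998, and all 15 were above 0. The summed level was 0.97 higher in replicate 3 of WT and 1.01 higher in replicate 3 of TCKO, on the log2 scale. As a share of all counted reads, the mitochondrial genes took 1.11%, 1.13% and 2.22% in WT and 1.24%, 1.19% and 2.47% in TCKO.

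All 8 mRNAs passed the threshold, with log2 fold changes from 0.84 to 1.11. For mt-Co1, the WT libraries held 37317, 45368 and 70057 reads and the TCKO libraries 39547, 34290 and 79797, and replicate 3 was higher by 0.97 ± 0.07 on the log2 scale (adjusted p = 0.000228, edgeR). mt-Cytb was at 1.03 ± 0.07 (adjusted p = 0.000132, edgeR) and mt-Nd2, the highest of the mRNAs, at 1.11 ± 0.06 (adjusted p = 7.66e-05, edgeR). The minus-strand mRNA mt-Nd6 moved with them, at 1.04 ± 0.07 (adjusted p = 0.000132, edgeR), as did mt-Nd3, which shares its sequence with chromosome 1, at 0.84 ± 0.22 (adjusted p = 0.0482, edgeR). The call for mt-Nd3, with a mean of 26.5 reads, was lost under DESeq2 (adjusted p = 0.232) and without any one library of replicates 1 and 2. In both genotypes, replicate 3 was above replicates 1 and 2 for all 8 mRNAs.

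The structural RNAs moved less evenly. Of the rRNAs, mt-Rnr2 was 0.73 ± 0.08 higher (adjusted p = 0.00123, edgeR), whereas the small-subunit rRNA mt-Rnr1 was at 0.24 ± 0.11 (adjusted p = 0.208, edgeR). mt-Rnr1 had 772, 853 and 1004 reads in WT and 920, 1004 and 1040 in TCKO, so that the replicates overlapped across genotypes. Reads of mt-Rnr2 came to 0.111, 0.107 and 0.0989 of those of mt-Cytb in WT and to 0.136, 0.161 and 0.108 in TCKO. Of the 5 tRNA genes, mt-Te (1.47 ± 0.24), mt-Tl1 (1.14 ± 0.28) and mt-Tp (0.67 ± 0.11) passed the threshold (adjusted p = 0.00842, 0.0376 and 0.00932, edgeR), and mt-Tc and mt-Tn did not (0.32 and 0.27; adjusted p = 0.247 and 0.300, edgeR). These RNAs were counted after poly(A) selection, so their reads do not give the level of the mature rRNA or tRNA.

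The nuclear genes did not share this shift. Their median log2 fold change in replicate 3 was 0.04, and 84.9% of them lay within 0.25 of 0, as did 65.7% of all tested genes. Only 2 nuclear genes were higher and 1 was lower past the threshold (DESeq2 also called 2 and 1), and all 3 had fewer than 50 reads on average. The lower call, Ndufa4l2, was lost without any one library of replicates 1 and 2. Its log2 difference was -1.07 without TCKO replicate 3, where it had 1 read, and -4.70 without WT replicate 3. Cox7c, a small subunit of complex IV, had 15, 11 and 64 reads in WT and 27, 28 and 88 in TCKO, and its log2 difference was 1.94 ± 0.25 (adjusted p = 0.00274, edgeR). Of the 50-base words of Cox7c, 22.1% also occurred in transcripts of other genes. Atp5l had 17, 12 and 38 reads in WT and 19, 21 and 65 in TCKO (1.57 ± 0.24, adjusted p = 0.00661, edgeR). Both were higher in replicate 3 of each genotype. The identical copy of Atp5l, Gm10221, with 896, 1128 and 967 reads in WT and 945, 932 and 1001 in TCKO, was at 0.05 (adjusted p = 0.699, edgeR).

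Ndufa4l2, known as a gene induced by low oxygen, fell in replicate 3. It had 12, 21 and 7 reads in WT and 29, 26 and 1 in TCKO, and its log2 difference was -2.38 ± 0.60 (adjusted p = 0.0411, edgeR), and its exons overlap those of Shmt2 on the other strand, which averaged 1397 reads. Among nuclear genes with 100 reads or more, the extreme values were Ndufa6 (-0.37), Ndufaf7 (-0.26) and Cox7a2l (-0.23), a factor in joining complexes III and IV, on the low side. On the high side they were Ndufa5 (0.34), Ndufaf4 (0.26) and Ndufa3 (0.24), all from complex I or its assembly. None of these 6 passed the threshold (adjusted p from 0.125 to 0.241, edgeR). Replicate 3 was above replicates 1 and 2 in both genotypes for 28 nuclear and 13 mitochondrial genes (22.1% of all tested genes were), and below them for 8 nuclear and 0 mitochondrial genes (21.9%).

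**Figure D5:**
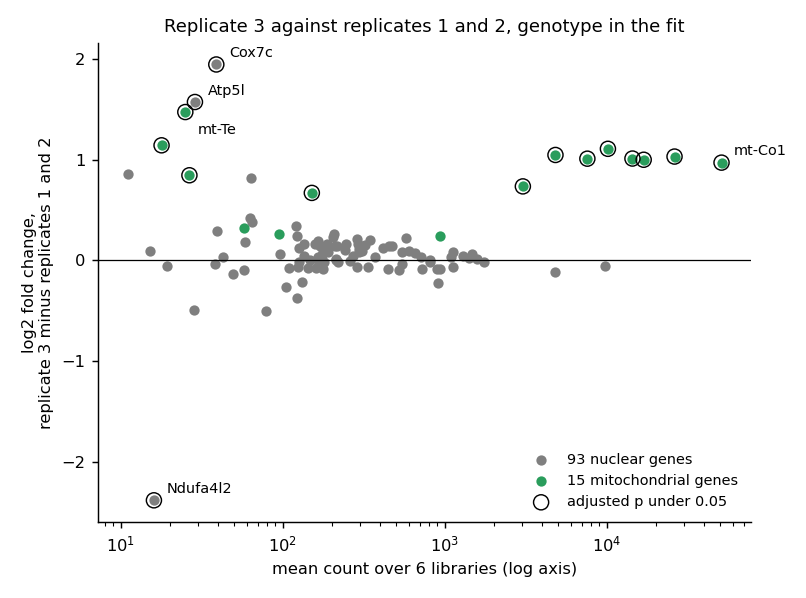
Log2 fold change of replicate 3 minus replicates 1 and 2 against the mean read count (log axis) for the 93 nuclear and 15 mitochondrial genes, with genes past the threshold circled. The mitochondrial genes lie from 0.24 to 1.47, with a median of 0.998, and the nuclear genes with many reads lie near 0.

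What set replicate 3 apart is not recorded in the labels. The sum of the haematopoietic markers was lowest in replicate 3 of each genotype, at 695, 706 and 381 CPM in WT and 512, 542 and 156 in TCKO. Most reads of that list belonged to Lyz2, and Cd14, with 57, 77 and 68 reads in WT, was not lowest in replicate 3 there. The summed CPM of the osteoblast markers was lowest in replicate 3 of each genotype, at 32552, 31555 and 30191 in WT and 22081, 22409 and 14265 in TCKO. Most reads of that osteoblast list belonged to Col1a1 and Col1a2, which set its sum. Within that list Sp7 and Alpl, named after their values were seen, went the other way in both genotypes. Sp7 had 890, 1123 and 2332 reads in WT and 274, 252 and 922 in TCKO. Alpl had 143, 163 and 475 reads in WT and 22, 11 and 34 in TCKO. By CPM, Runx2 was also higher in replicate 3 of each genotype, while Ibsp was lower there in WT and higher in TCKO. The part of such differences in the mitochondrial level was not tested.

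Genes that act around the respiratory chain were examined from lists of known function. Of 22 genes of the tricarboxylic acid cycle, 3 were higher in TCKO and 1 was lower (edgeR, adjusted p under 0.05). The higher ones were Cs, citrate synthase (2122, 2629 and 2201 reads in WT, 2894, 2587 and 2809 in TCKO; log2 fold change 0.30 ± 0.07), Mdh2 (0.29 ± 0.07) and Idh2 (0.83 ± 0.19). Pdha1, a subunit of the pyruvate dehydrogenase that feeds the cycle, was lower (-0.31 ± 0.08). Among 40 assembly factors outside the symbol rule, Tmem70, needed for ATP synthase, was higher (0.33 ± 0.08), and Cox15 (-0.37 ± 0.10), Cox14 (-0.28 ± 0.08) and Dmac1 (-0.36 ± 0.09) were lower; the median of the list was -0.11.

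Of 21 genes of electron carriers and coenzyme Q synthesis, Coq8b was higher (0.66 ± 0.14) and Sqor lower (-0.57 ± 0.14). Of 8 adenine nucleotide carriers and porins, Vdac2, an outer membrane porin, was higher (0.46 ± 0.07). Mrps6 was the only gene called among 80 of the mitochondrial ribosome (0.77 ± 0.10 higher; median of the list -0.02). Of 12 nuclear regulators of mitochondrial genes, Gabpb2 was lower (-0.35 ± 0.10). The highest log2 fold change of that list, 1.62, did not pass, and 2 genes were higher and 3 lower at an unadjusted p under 0.05 (edgeR). With the replicate block, 1 regulator was called higher, over 2-fold, and 1 lower, against 12.0% and 11.5% of all tested genes. Without the block, the counts in these lists, from 0 to 3 in either direction, can be read against the 9.07% and 8.63% of all tested genes.

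By function, the list closest to the mitochondrial genome is that of mitochondrial DNA transcription and RNA handling. Of its 29 tested genes, 0 were called in either direction with genotype (edgeR; 2 higher and 0 lower at an unadjusted p under 0.05), and 1, Tbrg4, was higher in replicate 3 (0.33 ± 0.08, adjusted p = 0.0438, edgeR), where 5.08% of all tested genes were. At an unadjusted p under 0.05, 8 of the 29 were higher in replicate 3 and 1 was lower, against 1814 and 1885 of 13826 tested genes. The median of the list in replicate 3 was 0.14, with 22 genes above 0. A similar lean was seen in 57 of 80 genes of the mitochondrial ribosome (median 0.08) and 30 of 40 assembly factors (median 0.10). The remaining lists were more evenly split. Above 0 were 7 of 12 nuclear regulators, 10 of 22 genes of the tricarboxylic acid cycle, 8 of 21 of the electron carrier list and 4 of 8 carriers and porins. Tfam, which packages mitochondrial DNA and starts its transcription, had 219, 283 and 204 reads in WT and 246, 216 and 231 in TCKO, and was at -0.12 in replicate 3 (adjusted p = 0.433, edgeR). Polrmt, the mitochondrial RNA polymerase, was at 0.21 (adjusted p = 0.09996, edgeR).

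Lastly, promoter sequence was described for the nuclear genes, using RefSeq windows on GRCm38.p6 from 250 bases before to 50 bases after the start. Of 87 nuclear genes that are not copies, 69 were matched, with 74 windows. Their median CG count was 19.5, against 7 over all 32851 windows. GCATGCGC, the core of the site of NRF1, was found on either strand in 14.9% of the members' windows, in 2.71% of all windows and in 6.14% of the 11378 windows with 15 CG or more. AAGATGGC, which is part of the site of YY1, was found in 13.5%, 2.75% and 4.67%, and CCGGAAGT, a site of ETS factors, in 6.76%, 3.89% and 8.45%. None of the 3 motifs contains another, and a match is a description of these letters and no measure of binding. The upstream part of the Cox6a1 window is shown as the counterpart of Cox6a2, for which no window is given (chr5:115348959-115349208, minus strand); the capitals mark GCATGCGC, which occurs on both strands in overlap.

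Cox6a1: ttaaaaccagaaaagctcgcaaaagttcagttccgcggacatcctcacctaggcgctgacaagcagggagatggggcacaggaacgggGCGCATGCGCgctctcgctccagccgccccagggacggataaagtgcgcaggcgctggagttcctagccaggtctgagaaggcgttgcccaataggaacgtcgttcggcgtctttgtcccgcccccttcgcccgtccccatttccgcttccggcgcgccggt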

How the data were processed

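RNA-seq was measured in 6 libraries of primary osteoblasts, 3 per genotype, grouped by the labels. The deposited values are raw read counts per gene in 1 table of the whole series. Per the labels and the study's methods, the authors aligned reads to GRCm38 with STAR 2.7.0e and counted them with featureCounts 2.0.0; the submitters' notes also name CASAVA and DESeq2. Strand use and multiply mapped reads in counting are not given in the sources used here. Poly(A) selection and any reads lost to near-identical copies may bear on the mitochondrial counts, and the part of either was not tested.

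Genes were filtered with edgeR's filterByExpr, scaled by TMM and tested with the edgeR quasi-likelihood test (edgeR 4.0.16, limma 3.58.1, R 4.3.3) on 13826 genes, TCKO against WT, and replicate 3 against replicates 1 and 2 with genotype as a covariate. Benjamini-Hochberg adjustment ran over all tested genes, with a threshold of 0.05. CPM used TMM-scaled totals, and RPKM divided CPM by exon length in kilobases. Summed levels were compared by exact permutation tests. Scripts were tested on simulated data. Alternatives were other scalings, other filters, DESeq2 1.42.0, leaving out each library, summing replicates 1 and 2, and a replicate block. Replicate numbers come from the labels. Deviations from the group means correlated between same-numbered libraries at r = 0.204, 0.214 and 0.347 across genes, and the numbers were taken to pair the libraries. Replicates 1 and 2 correlated about as much across numbers (0.188 and 0.225), so these values set apart replicate 3 alone and do not show which of the others belong together.

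Genes named were those past the threshold, the 5 highest and 5 lowest nuclear genes by genotype and the 3 highest and 3 lowest by replicate among those with a mean of 100 reads or more, subunit isoform pairs, mitochondrial mRNAs and rRNAs, and the largest called changes of each list. The members and lists were chosen with earlier results of these data known. Transcript sequences came from GENCODE M21 (GRCm38) and promoters from RefSeq (GRCm38.p6).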

Additional observations from a re-analysis of the deposited data

How the results depend on the processing

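Cox6a2 stayed lower in TCKO and past the threshold under every alternative that kept it, with adjusted p from 7.6e-05 (DESeq2) to 0.04998 (edgeR with replicates 1 and 2 summed); the 50-count filter removed it. The count of nuclear genes lower in TCKO, 2 as reported, was 1 with no filter beyond 1 count, under the filter at 50 counts, by DESeq2, and with replicates 1 and 2 summed, with or without a replicate block; leaving out 1 library gave 1 to 4. Nuclear genes higher in TCKO went from 0 to between 0 and 3 when 1 library was left out. Mitochondrial genes higher in TCKO went from 0 to 2 with the replicate block, back to 0 with the block on replicates 1 and 2 summed (mt-Nd2 adjusted p = 0.203, mt-Rnr2 0.140, edgeR), and to between 0 and 2 with 1 library left out. For replicate 3, the count of nuclear genes higher (2) was 0 under the filter at 50 counts, 0 after summing the first replicates, and 2 to 7 with 1 library left out. The count of nuclear genes lower in replicate 3 (1) was 2 with no filter, 0 under the filter at 50 counts, 0 when summed, and 0 to 5 with 1 library left out. Mitochondrial genes higher in replicate 3 numbered 12, and 0 when summed, where fewer libraries entered the fit; leaving out 1 library gave 10 to 12.

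The summed mitochondrial difference between genotypes (0.10) ranged from -0.24 to 0.42 with 1 library left out: it was -0.07 without WT replicate 1, -0.06 without WT replicate 2 and -0.24 without TCKO replicate 3. The ratio (0.03) ranged from -0.33 to 0.34, at -0.14, -0.11 and -0.33 without the same libraries, and does not depend on library totals. mt-Nd2 ranged from -0.0608 without TCKO replicate 3 to 0.87 without WT replicate 3. For the other changes the cause was not tested. Beyond the 2 mitochondrial calls, the replicate block changed no other call among the members. The spread of the mitochondrial genes over 3 libraries limits what a genotype difference could show.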
